A study of Mus musculus with 2 samples.

Results

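Synaptotagmins are vesicle and membrane proteins with a pair of C2 domains, and 10 of their genes were followed here across the neurons and glia of the hippocampus of tauopathy mice. The genes were chosen by symbol (*Syt1*, *Syt2*, *Syt4*, *Syt5*, *Syt6*, *Syt7*, *Syt9*, *Syt10*, *Syt11* and *Syt17*), and all 10 are among the 32285 genes of the count matrices. Single-nucleus 3′ RNA libraries were made from snap-frozen hippocampi of 9-month-old male mice, with 1 pooled library per genotype. The PS19 library came from PS19+/- *Zbp1*+/+ mice and the PZKO library from PS19+/- *Zbp1*-/- mice. Both groups therefore carried the Tau P301S transgene, human tau driven by the mouse prion promoter, and neither is a control without tauopathy. The *Zbp1* deletion is germline, so it is shared by every cell type. The counts carry no animal label, so the spread between animals cannot be given and no test between the genotypes was possible.

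In many neurons calcium that enters through voltage-gated channels binds the C2 domains of a synaptotagmin on the vesicle, and the protein then acts with the SNARE proteins to fuse the vesicle with the plasma membrane. *Syt1*, *Syt2* and *Syt9* encode fast sensors of this kind, and *Syt7* encodes a slower sensor of higher calcium affinity that serves asynchronous release and facilitation. *Syt5*, *Syt6* and *Syt10* encode further calcium-binding members, of which *Syt10* is known from the activity-dependent secretion of IGF-1. *Syt4* and *Syt11* encode members whose C2 domains bind calcium poorly or not at all and that have been linked to dense-core vesicles, endocytosis and membrane repair, and *Syt17* encodes an atypical member without a transmembrane segment.

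Of the 10 genes, 6 have a promoter sequence in the RefSeq table for GRCm38.p6 used here. The 250 bases upstream of the start site are shown for *Syt2*, *Syt9* and *Syt10*, the genes with the largest differences between the libraries over all excitatory neurons, with *Syt2* having a pair of annotated starts. Capitals mark the GC box, GGGCGG or its complement CCGCCC. The windows lie at chr1:134646362-134646611 and chr1:134709050-134709299 on the plus strand for *Syt2*, at chr7:107370540-107370789 on the plus strand for *Syt9*, and at chr15:89841861-89842110 on the minus strand for *Syt10*, and each reads 5′ to 3′.
Syt2 start 1: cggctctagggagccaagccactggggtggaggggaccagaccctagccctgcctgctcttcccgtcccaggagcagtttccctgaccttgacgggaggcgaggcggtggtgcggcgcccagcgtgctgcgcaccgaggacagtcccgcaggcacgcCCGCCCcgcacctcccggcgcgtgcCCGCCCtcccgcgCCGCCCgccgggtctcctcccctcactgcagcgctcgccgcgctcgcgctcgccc
Syt2 start 2: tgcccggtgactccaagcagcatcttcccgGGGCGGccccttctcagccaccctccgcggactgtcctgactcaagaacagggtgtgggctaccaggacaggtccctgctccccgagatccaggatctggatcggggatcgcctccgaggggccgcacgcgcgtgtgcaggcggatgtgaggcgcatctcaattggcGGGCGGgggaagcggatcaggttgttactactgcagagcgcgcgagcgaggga
Syt9: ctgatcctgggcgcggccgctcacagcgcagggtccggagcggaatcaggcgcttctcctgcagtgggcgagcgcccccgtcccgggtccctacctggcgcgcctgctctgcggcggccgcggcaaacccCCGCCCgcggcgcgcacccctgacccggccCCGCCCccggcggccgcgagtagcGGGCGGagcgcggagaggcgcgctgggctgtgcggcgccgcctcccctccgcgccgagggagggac
Syt10: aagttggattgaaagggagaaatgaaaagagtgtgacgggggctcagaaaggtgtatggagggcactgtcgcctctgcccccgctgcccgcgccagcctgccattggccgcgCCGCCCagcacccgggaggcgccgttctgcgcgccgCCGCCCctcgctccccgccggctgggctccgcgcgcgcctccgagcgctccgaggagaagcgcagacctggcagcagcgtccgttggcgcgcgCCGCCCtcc
The windows held 3 and 2 GC boxes at the starts of *Syt2*, 3 at *Syt9* and 3 at *Syt10*. Of all 32851 promoter windows of this length, 32.7% held at least 1. None of the 4 held a TATA box (TATAAA, in 12.4% of all windows) or an E box (CACGTG, in 6.02%), and a CCAAT box (CCAAT, in 33.8%) occurred once at the second start of *Syt2* and once at *Syt10*. Their GC content was 76.0%, 66.4%, 80.4% and 72.0%, against a median of 52.4%. Both strands were searched, and a match is a description of the letters, not a binding site.

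The PS19 library held 11469 nuclei and 116488513 UMIs, counts of distinct captured molecules, with a median of 5642 per nucleus, and the PZKO library held 10920 nuclei and 171167884 UMIs with a median of 8342.5. After filtering, 9590 and 9307 nuclei remained, and 47 cell barcodes occurred in both libraries. *Zbp1* had 92 UMIs in PS19 and 38 in PZKO, a log2 ratio of -1.87 (95% interval -2.46 to -1.31), and the 3′ tags counted may lie outside the deleted part. Nuclei fell into 48 clusters, of which 34 were neuronal. A cluster was called "-like" only where its markers allowed it, and is otherwise called by its leading genes. Excitatory neurons made up 23 clusters and inhibitory neurons 7. Although the tissue was labelled hippocampus, clusters with markers of corticothalamic, near-projecting, layer 6b and upper-layer cortical or entorhinal neurons were present beside dentate granule-like, CA1-like, CA2-like, CA3-like and subiculum-like ones. A further 5 clusters stayed without a class, with 5.10% of PS19 and 4.93% of PZKO nuclei. Levels are UMIs of a gene per 1000000 UMIs of a cluster or class (CPM), and since a level depends on the length and 3′ end of a gene, a gene is compared only with itself.

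The fast sensors differed in how widely they were used. *Syt1* (chr10:108497650-109010982) was detected in every excitatory cluster at 2593 CPM or more over both libraries, whereas *Syt2* and *Syt9* stood high in a few clusters and near 0 in others. *Syt1* was lowest among excitatory clusters in the dentate granule-like cluster led by *Chst9* and *Dsp*, with 2632 CPM in PS19 and 2547 in PZKO. Its highest level, 5096 CPM over both libraries, was in the *Itprid1* and *Chrm2* cluster, and the interval overlapped that of the next cluster, *Kcnh5* and *Il1rapl2*, at 5080 CPM. Parvalbumin-like interneurons, at 3514 and 3264 CPM, stood below the neurogliaform-like ones at 4841 and 4567.

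*Syt2* (chr1:134646677-134762593) was highest in parvalbumin-like interneurons, the fast-spiking cells of the cortex and hippocampus. Its level there was 143 CPM in PS19 (428 UMIs) and 155 in PZKO (842 UMIs), a log2 ratio of 0.11 (-0.06 to 0.29). It was under 5 CPM in 5 of the 7 inhibitory clusters and in 11 of the 23 excitatory ones. Excitatory clusters with at least 100 *Syt2* UMIs included the subiculum-like cluster, at 59.4 and 52.9 CPM, the *L3mbtl4* and *Qrfpr* cluster, at 45.6 and 52.2, and the *Atp10b* and *Vwc2l* cluster, at 51.1 and 44.3. Parvalbumin-like neurons thus exceeded each of them in both libraries.

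*Syt9* (chr7:107370728-107548656) was, among neurons, highest in clusters that were given no subtype name. It reached 491 CPM over both libraries in the *Nwd2* and *Kctd8* neurons, a cluster of no class that held both *Slc17a6* and *Gad* markers, and 184 CPM in PS19 and 253 in PZKO in the excitatory *Adamts19* and *Synpo2* cluster. The *Chst9* and *Dsp* granule-like cluster had 5 *Syt9* UMIs over both libraries, or 0.327 CPM. Outside neurons *Syt9* stood at 156 and 124 CPM in choroid plexus epithelial-like nuclei, which line the ventricles and secrete cerebrospinal fluid. Ependymal-like nuclei had 52.7 CPM over both libraries, and the *Anln* and *Enpp6* oligodendrocyte-like cluster had 43.1 and 44.0 CPM, against 5.99 over both libraries in the *Bfsp2* and *Il33* oligodendrocyte-like cluster.

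*Syt7* (chr19:10389090-10453180), the slow sensor, ran opposite to *Syt1* in the dentate gyrus. The granule-like cluster led by *Trpc6* and *Stxbp6* had the highest level of any cluster, 434 CPM in PS19 and 446 in PZKO, and the *Chst9* and *Dsp* granule-like cluster had 371 and 358. *Adamts19* and *Synpo2* neurons lay between them at 431 and 382 CPM. CA3-like neurons had 248 and 230 CPM and the *Stac* and *Epha6* CA1-like cluster 197 and 202, while the *Dcn* and *Pde11a* CA1-like cluster had 93.1 and 130. Inhibitory clusters ranged from 35.2 CPM over both libraries in *Adarb2* interneuron-like nuclei to 285 in the *Ano1* and *Ano2* cluster.

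**Figure D1:**
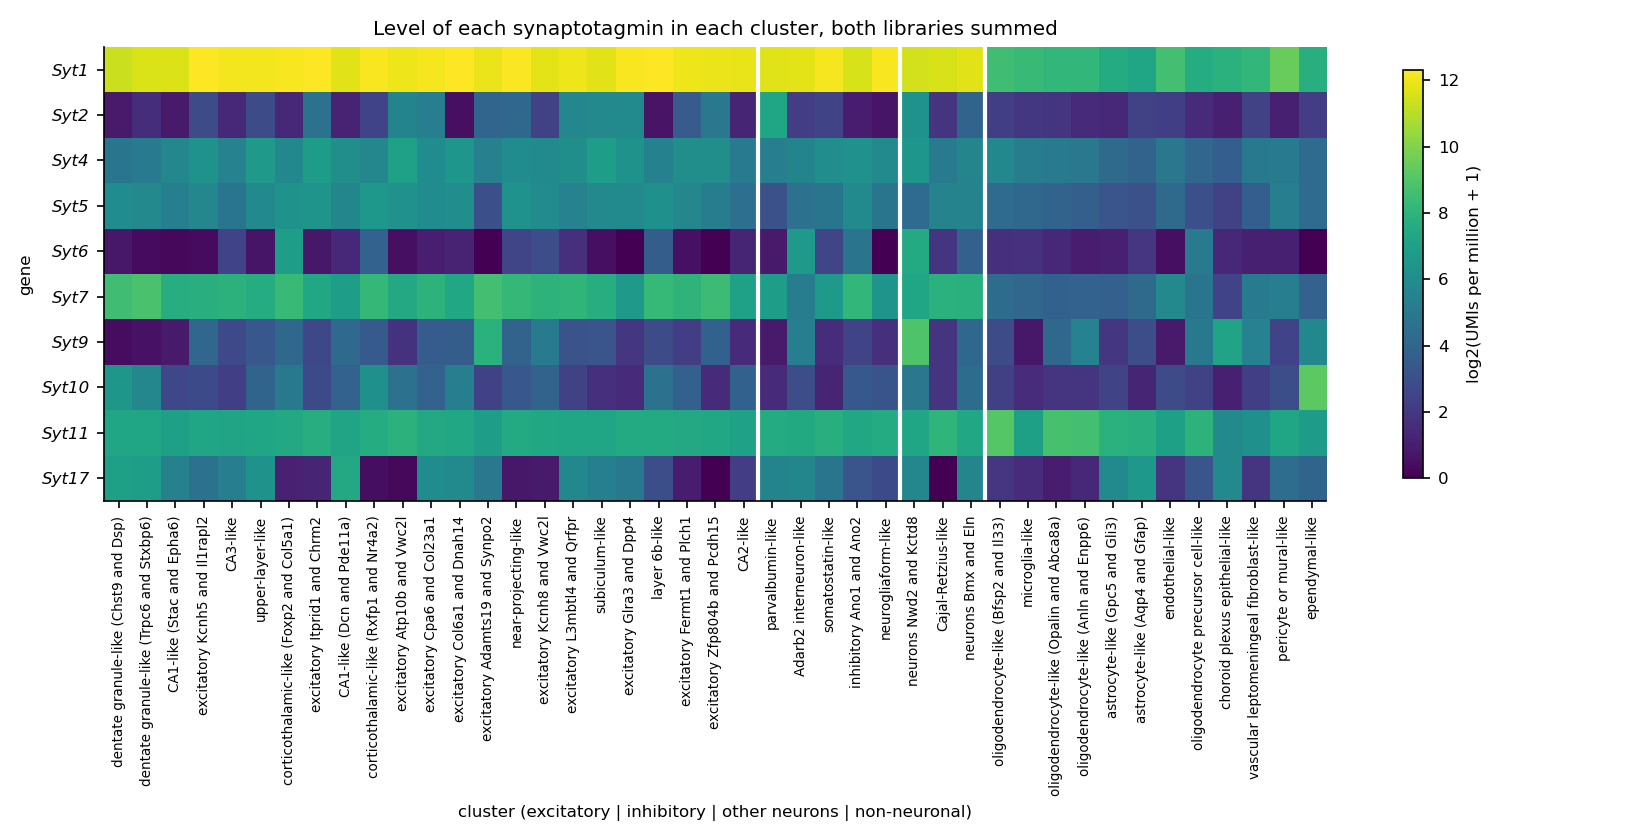
Level of each synaptotagmin (rows) in clusters with at least 40 nuclei (columns), as log2(CPM + 1) over both libraries in colour. The unnamed clusters led by *Ttn* and *Ttr* and by *Mrc1* and *F13a1* are not drawn. Rows are not to be compared with each other because levels are not per length; within a row, *Syt2* peaks in parvalbumin-like neurons (151 CPM), *Syt10* in ependymal-like nuclei (588 CPM) and *Syt11* in oligodendrocyte-like clusters (402 to 536 CPM).

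Among the other calcium-binding members, *Syt5* was spread over many neuron clusters, *Syt6* was high in a few, and *Syt10* was high in ependymal-like nuclei and granule-like neurons. *Syt5* (chr7:4539765-4547541) stood at 117 CPM in PS19 and 84.5 in PZKO in the *Rxfp1* and *Nr4a2* corticothalamic-like cluster. The *Itprid1* and *Chrm2* cluster, at 69.0 CPM in PS19 and 90.5 in PZKO, was lower in PS19 and higher in PZKO. The inhibitory *Ano1* and *Ano2* cluster had 75.5 and 46.9 CPM. *Syt5* was at 68.7 and 56.4 CPM in the *Chst9* and *Dsp* granule-like cluster, 28.3 and 24.9 in CA3-like neurons, and 7.24 CPM over both libraries in parvalbumin-like interneurons.

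*Syt6* (chr3:103575231-103645569) was under 5 CPM in 18 of the 23 excitatory clusters. The highest of the other 5 was the *Foxp2* and *Col5a1* corticothalamic-like cluster, with 112 CPM in PS19 (356 UMIs) and 115 in PZKO (618 UMIs). The *Rxfp1* and *Nr4a2* cluster, named from the same marker list, had 72 *Syt6* UMIs over both libraries, or 13.4 CPM. Beyond these, *Adarb2* interneuron-like nuclei had 93 and 104 CPM, *Nwd2* and *Kctd8* neurons had 183 over both libraries, and oligodendrocyte precursor-like nuclei had 40.4 and 30.3. The *Rgs9* and *Rarb* inhibitory cluster, at 157 CPM, had 23 nuclei in PS19 and 1 in PZKO and was not compared.

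*Syt10* (chr15:89782393-89841860) had its highest level in ependymal-like nuclei, the ciliated lining of the ventricles, with 592 CPM in PS19 (502 UMIs) and 583 in PZKO (447 UMIs), a log2 ratio of -0.02 (-0.21 to 0.17). In PS19 20.1% of all *Syt10* UMIs came from these nuclei, which held 0.84% of all UMIs, and in PZKO 16.8% from 0.50%. In neurons it was highest in the granule-like cluster led by *Chst9* and *Dsp*, at 85.9 and 94.6 CPM, then in the *Rxfp1* and *Nr4a2* corticothalamic-like cluster, at 92.7 and 62.2, and in the *Trpc6* and *Stxbp6* granule-like cluster, at 53.6 and 48.0. The order of the first pair differed between the libraries.

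The members that bind calcium poorly were detected in every excitatory cluster. *Syt4*, whose mRNA is induced by activity, ranged over these from 26.5 CPM over both libraries in the *Chst9* and *Dsp* granule-like cluster to 130 in the *Atp10b* and *Vwc2l* excitatory cluster. *Syt11* (chr3:88744700-88775164) ranged from 116 to 240 CPM over excitatory clusters and was higher in each of the 3 oligodendrocyte-like clusters. Its level over all oligodendrocyte-like nuclei was 515 CPM in PS19 (4782 UMIs) and 401 in PZKO (4189 UMIs), and over astrocyte-like nuclei 240 and 200. Oligodendrocyte-like nuclei supplied 22.3% of *Syt11* UMIs in PS19 and 16.1% in PZKO. An unnamed cluster of shallow nuclei led by *Ttn* and *Ttr*, with medians of 818 and 814.5 UMIs, stood higher still at 772 CPM over both libraries. It also stood above every other cluster over both libraries for *Syt4*, at 253 CPM, and *Syt5*, at 106 CPM, and is left out of what is called highest here.

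*Syt17* (chr7:118380717-118448222) separated the CA1-like clusters. The *Dcn* and *Pde11a* cluster had 141 CPM in PS19 and 183 in PZKO, the highest of any cluster in both, while the *Stac* and *Epha6* cluster had 44.2 and 38.5. Granule-like clusters followed, at 126 and 124 CPM for *Chst9* and *Dsp* and 112 and 132 for *Trpc6* and *Stxbp6*, and their intervals over both libraries overlapped. The *Aqp4* and *Gfap* astrocyte-like cluster came next, with 85.9 and 98.1 CPM, followed by upper-layer-like neurons with 72.2 and 78.4. The *Gpc5* and *Gli3* astrocyte-like cluster, at 55.0 and 59.8 CPM, stood lower. No *Syt17* UMI was found in the excitatory *Zfp804b* and *Pcdh15* cluster.

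**Figure D2:**
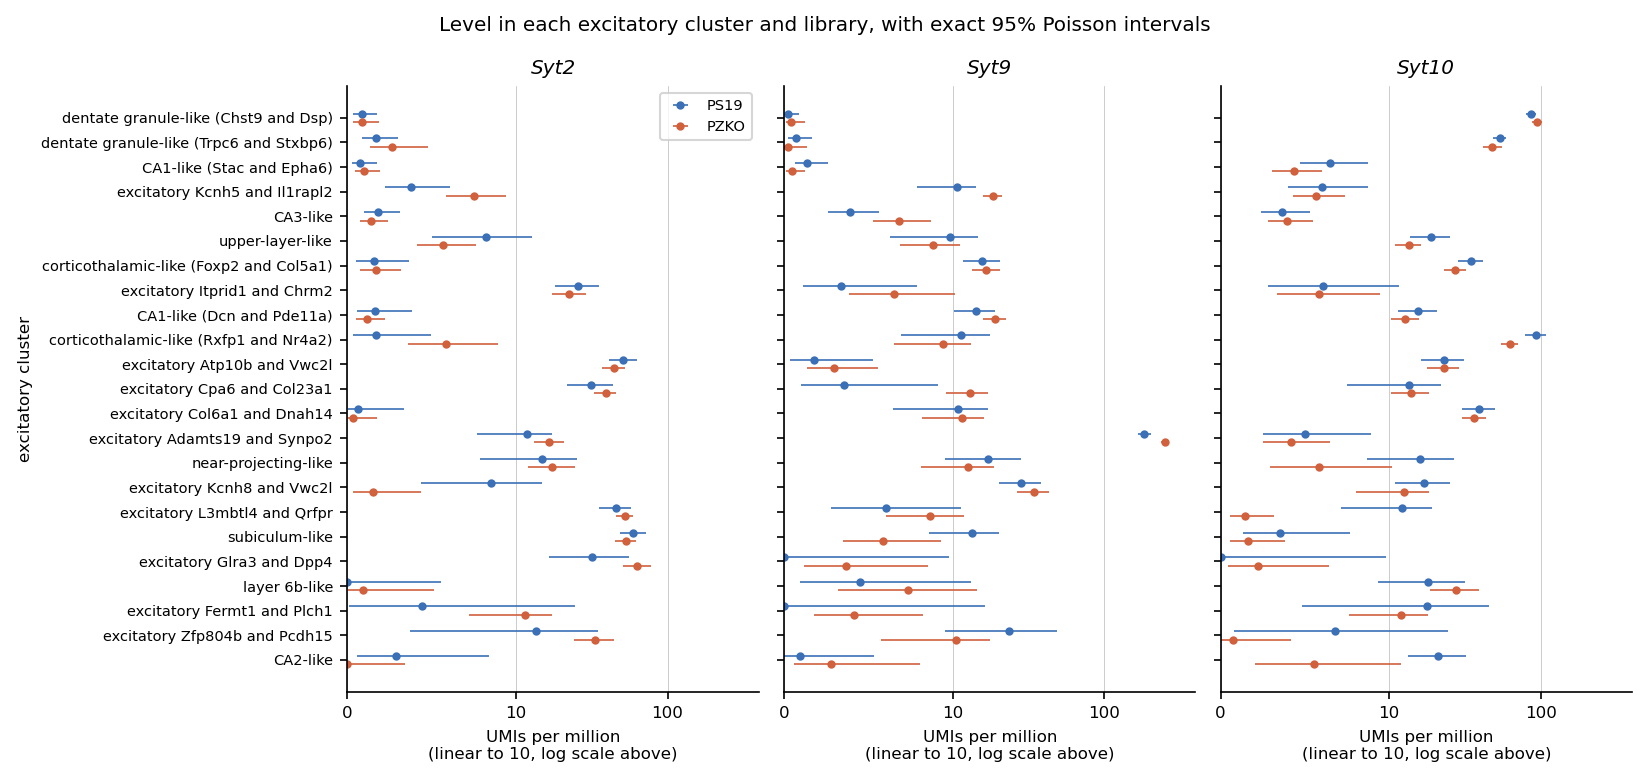
Level of *Syt2*, *Syt9* and *Syt10* (CPM, linear up to 10 and on a log scale above) in each of the 23 excitatory clusters, with a blue point for the PS19 and an orange one for the PZKO library and exact 95% Poisson intervals for counting error. *Syt9* stands apart in the *Adamts19* and *Synpo2* cluster (184 and 253 CPM), and *Syt10* is high in the granule-like clusters, where *Syt9* is near 0.

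Suspensions of nuclei carry free RNA, so levels outside neurons were set beside those of 9 neuron-only genes (*Rbfox3*, *Snap25*, *Slc17a7*, *Camk2a*, *Gad1*, *Gad2*, *Neurod6*, *Grin2a* and *Kcnq5*) as a percent of the level over all neurons. *Syt1* in oligodendrocyte-like nuclei was at 7.65% of its neuron level in PS19 and 8.24% in PZKO, beside medians of 11.4% and 12.6% for the 9 genes, so it cannot be told from carried-over neuronal RNA. *Syt11* in these nuclei was at 285% and 268%, beyond the highest of the 9 genes (35.8% and 28.3%). *Syt17* in astrocyte-like nuclei was at 142% and 157%, where the 9 genes reached 31.4% and 18.2%.

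The same held for *Syt9* and *Syt10* at the ventricles. In choroid plexus epithelial-like nuclei *Syt9* was at 807% of its neuron level in PS19 and 415% in PZKO, and in ependymal-like nuclei *Syt10* was at 2284% and 3287%, where the 9 genes reached 26.4% and 39.6%. These percents also move with the neuron level of each library. The levels themselves were 156 and 124 CPM for *Syt9* and 592 and 583 for *Syt10*. *Syt4* in microglia-like nuclei was at 52.6% and 61.1%, where the 9 genes reached 32.7% and 29.4%. These nuclei had 33.4 CPM of *Syt4* in PS19 and 36.1 in PZKO, with an estimated share of free RNA of 16.4% and 19.0%. The shallow *Ttn* and *Ttr* cluster, where that share was the highest of any cluster, had 237 and 278 CPM. Whether the *Syt4* UMIs of microglia-like nuclei are carried-over RNA was not tested. *Syt6* in oligodendrocyte precursor-like nuclei was at 294% and 211%. There the range of the 9 genes was itself wide, since *Gad1* reached 146% and 141%, and only *Syt6* and *Syt11* lay above it in both libraries.

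**Figure D3:**
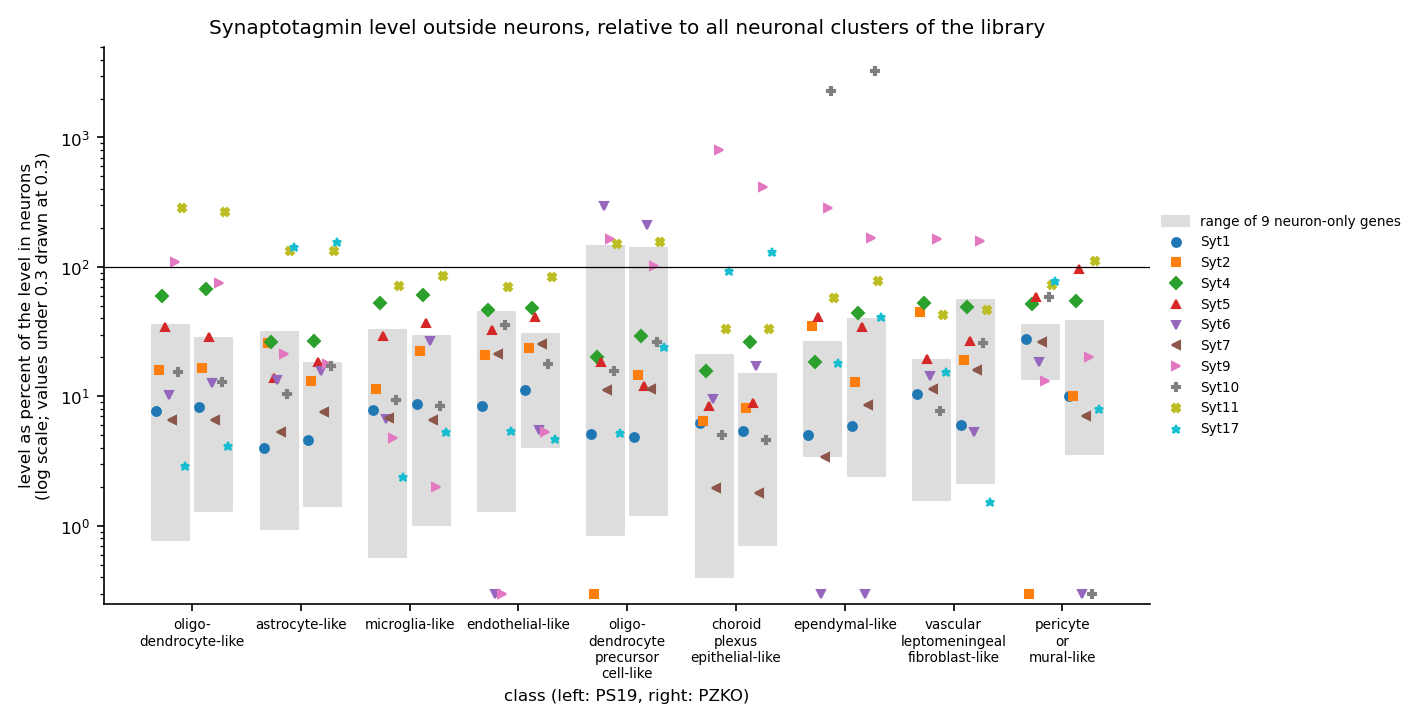
Level of each synaptotagmin outside neurons as a percent of its level over all neurons (log scale), for the PS19 and PZKO libraries, with the range of 9 neuron-only genes in grey, a line at the neuron level and values under 0.3% drawn at 0.3%. *Syt11* in oligodendrocyte-like nuclei (285% and 268%), *Syt17* in astrocyte-like nuclei (142% and 157%) and *Syt10* in ependymal-like nuclei (2284% and 3287%) lie above the grey range.

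The study asked how loss of ZBP1 alters gene expression in excitatory neurons, and over all excitatory nuclei summed, 2793 in PS19 and 3058 in PZKO, *Syt2* and *Syt9* were higher and *Syt10* lower in the PZKO library by more than 1.5-fold. That is 3 of the 10 members, where 7.3% of the 16041 genes with at least 100 UMIs passed the same fold in either direction. The paper had already listed *Syt2* and *Syt9* as increased in PZKO excitatory neurons from these data, so this share is no test of the family. Its cutoff, given with its microglia plot, was a smaller log2 fold change together with an adjusted p-value. Passing or missing 1.5-fold, here or below, therefore does not decide the paper's call. Intervals here and below are exact 95% Clopper-Pearson intervals of the ratio and cover counting error only. *Syt2* had 486 UMIs in PS19 and 1179 in PZKO, or 8.08 and 12.1 CPM, a log2 ratio of PZKO over PS19 of 0.59 (0.43 to 0.74). *Syt9* had 763 and 2029 UMIs, or 12.7 and 20.9 CPM, a log2 ratio of 0.72 (0.60 to 0.84). *Syt10* had 1792 and 1928 UMIs, or 29.8 and 19.8 CPM, a log2 ratio of -0.59 (-0.68 to -0.49). *Syt2*, at 1.501-fold, and *Syt10*, at 0.6657-fold, passed the cutoff only narrowly.

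The mix of excitatory clusters differed between the libraries at the same time. Granule-like nuclei, where *Syt10* was high and *Syt9* near 0, made up 36.1% of excitatory nuclei in PS19 (1009 nuclei) and 16.7% in PZKO (512 nuclei), and 25.5% and 11.4% of the excitatory UMIs. Every cluster was then given the same weight in both libraries, the mean of its shares of the excitatory UMIs in PS19 and PZKO. Clusters still differed in weight from each other. With these equal weights the log2 ratio was 0.14 for *Syt2*, 0.38 for *Syt9* and -0.15 for *Syt10*, so none of the 3 passed 1.5-fold. With the cluster levels held equal and only the mix left to differ, it was 0.42, 0.33 and -0.38. Without the granule-like clusters it was 0.37, 0.48 and -0.33. Whether the mix follows from the genotype or from the dissection of each pool cannot be told apart with 1 library per genotype.

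The other 7 members had log2 ratios between -0.25 and 0.15 over all excitatory nuclei. *Syt1* had 233659 and 399005 UMIs, 3883 and 4103 CPM, and its ratio of 0.08 became -0.01 with equal weights. *Syt4* went from -0.06 to -0.27 and *Syt17* from -0.07 to 0.18 with equal weights, whereas *Syt11* stayed near -0.25, at -0.29. *Syt7* went from -0.10 to 0.04 with equal weights, and *Syt6* from 0.15 to -0.10 without the granule-like clusters.

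**Figure D4:**
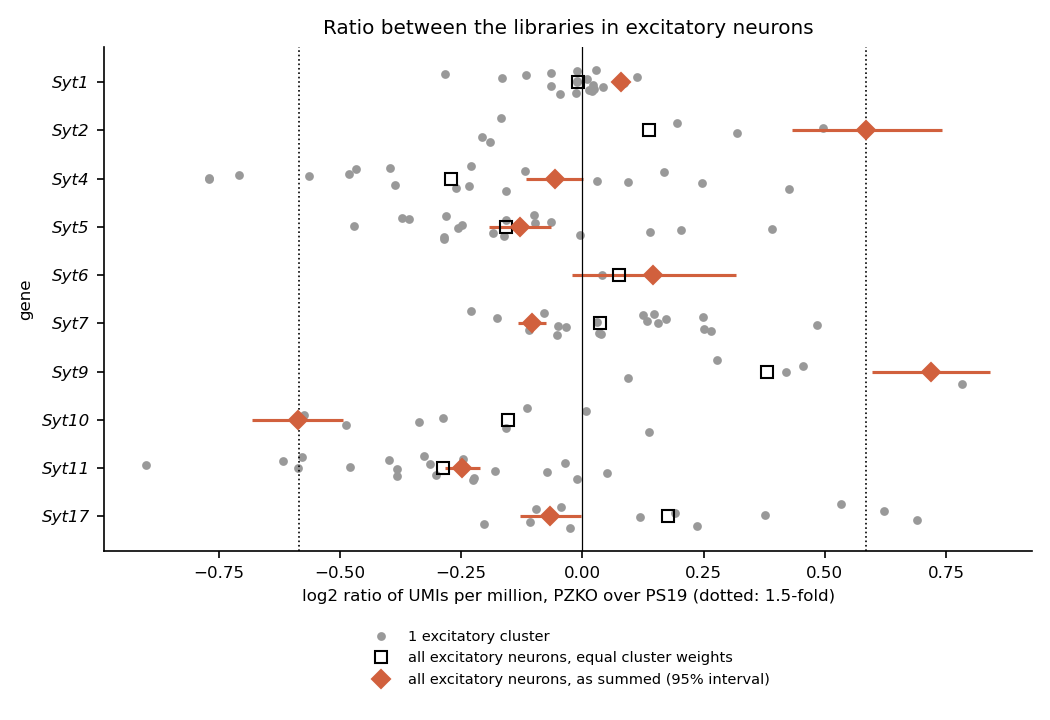
Log2 ratio of PZKO over PS19 for each synaptotagmin in the excitatory clusters with at least 100 UMIs of the gene and 20 nuclei per library, shown as grey points, with the value over all excitatory nuclei as summed (diamonds, bars for the 95% counting interval) and with equal cluster weights (squares). Equal weights are equal between the libraries, not between clusters. Dotted lines mark 1.5-fold. Summed values of *Syt2* (0.59), *Syt9* (0.72) and *Syt10* (-0.59) lie further from 0 than their equal-weight values (0.14, 0.38 and -0.15), and *Syt11* lies below 0 in 18 of 19 clusters.

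Within single excitatory clusters few members passed 1.5-fold. Of 125 pairs of a member and 1 of 19 compared clusters, 9 (7.20%) did, 3 higher and 6 lower in PZKO, where 6.2% of all gene and cluster pairs passed, 2.39% higher and 3.81% lower. The members' share is thus near the background. *Syt2* passed in 0 of the 6 clusters where it could be counted and *Syt10* in 0 of 8, and *Syt1*, *Syt5* and *Syt7* passed in none of 19, 18 and 19.

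*Syt9* was above 0 in all 5 excitatory clusters with enough UMIs, with a median log2 ratio of 0.42. Most of its excitatory UMIs, 55.9%, came from the *Adamts19* and *Synpo2* cluster, where it had 406 UMIs in PS19 and 1154 in PZKO, 184 and 253 CPM, a log2 ratio of 0.46 (0.29 to 0.62). That cluster had 57 and 75 nuclei. Among the 5, *Syt9* passed 1.5-fold in the *Kcnh5* and *Il1rapl2* cluster alone, from 10.7 CPM (48 UMIs) to 18.4 (182 UMIs), a log2 ratio of 0.78 (0.32 to 1.27).

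*Syt17* was higher in PZKO by more than 1.5-fold in 2 of 12 excitatory clusters. CA3-like neurons had 28.3 CPM in PS19 (203 UMIs) and 45.7 in PZKO (427 UMIs), a log2 ratio of 0.69 (0.44 to 0.94). The *Col6a1* and *Dnah14* cluster had 41.3 and 63.5 CPM, a log2 ratio of 0.62 (0.22 to 1.04). In the *Dcn* and *Pde11a* CA1-like cluster, where *Syt17* was highest, the ratio was 0.38 (0.22 to 0.54), and in the *Stac* and *Epha6* CA1-like cluster it was -0.20 (-0.44 to 0.03).

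*Syt11* and *Syt4* accounted for the pairs that were lower in PZKO. *Syt11* was below 0 in 18 of 19 excitatory clusters, with a median of -0.31, and past 1.5-fold in 3. In the *Cpa6* and *Col23a1* cluster it had 267 CPM in PS19 and 143 in PZKO, a log2 ratio of -0.90 (-1.11 to -0.69). Near-projecting-like neurons had 240 and 156 CPM (-0.62, -0.88 to -0.36), and the *Rxfp1* and *Nr4a2* corticothalamic-like cluster 251 and 167 (-0.59, -0.77 to -0.41). Upper-layer-like neurons, at 149 and 154 CPM, were the exception. Scaling by TMM or DESeq2 size factors moved the log2 ratios of near-projecting-like neurons up by 0.054 and 0.075. In the *Rxfp1* and *Nr4a2* cluster the ratios moved up by 0.095 and 0.082. Either scaling took *Syt11* inside 1.5-fold in both of these clusters.

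*Syt4* was past 1.5-fold in 3 of 18 clusters. Its level was 94.8 CPM in PS19 and 55.6 in PZKO in the *Dcn* and *Pde11a* CA1-like cluster (-0.77, -0.99 to -0.54), 71.1 and 41.7 in the *Rxfp1* and *Nr4a2* cluster (-0.77, -1.12 to -0.42), and 89.5 and 54.8 in the *Cpa6* and *Col23a1* cluster (-0.71, -1.06 to -0.35). It ran the other way in the *Trpc6* and *Stxbp6* granule-like cluster, at 28.7 and 38.6 CPM, and in upper-layer-like neurons, at 85.3 and 101. *Syt5* was below 0 in 15 of 18 clusters with a median of -0.17.

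*Syt4* (9.60 kb), *Syt5* (7.78 kb) and *Syt11* (30.5 kb) are the 3 members shorter than 40 kb, and short genes as a whole stood lower in PZKO. Over the 6555 genes under 40 kb the median log2 ratio was below 0 in 19 of 19 excitatory clusters, with a median of -0.09, while genes over 150 kb were below 0 in 0 of 19, with a median of 0.09. Among 2581 genes counted in all 19 clusters, 3.53% were below 0 in 18 or more, and 2.63% had a median as low as that of *Syt11*. The members over 150 kb are *Syt1* (513 kb) and *Syt9* (178 kb). The part of gene length, or of what moves with it, in the ratios of *Syt4*, *Syt5*, *Syt9* and *Syt11* was not tested.

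Over all inhibitory nuclei 1 member passed 1.5-fold, *Syt9*, against 6.27% of 12171 genes in either direction. It had 138 UMIs in PS19 and 118 in PZKO, 12.5 and 6.99 CPM, a log2 ratio of -0.84 (-1.20 to -0.47), the opposite direction to excitatory nuclei. Of these UMIs 108 and 84 came from the *Adarb2* interneuron-like cluster (46.9 and 29.6 CPM, -0.66, -1.09 to -0.24). A further 12 and 0 came from the *Rgs9* and *Rarb* cluster of 23 PS19 nuclei and 1 PZKO nucleus. The mix of inhibitory clusters was not held equal, and its part in the ratio was not tested. The sign of the value over all inhibitory nuclei depended on the clustering, and it was 0.14 at a lower resolution.

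Over the 19 other compared clusters, inhibitory, glial and unclassed, 13 of 88 pairs (14.8%) passed 1.5-fold, 3 higher and 10 lower in PZKO, beside 7.84% of all gene and cluster pairs, 2.92% higher and 4.92% lower. Inhibitory clusters gave the lower values of *Syt4*, in the *Ano1* and *Ano2* cluster (99.1 and 58.1 CPM, -0.77, -1.10 to -0.45) and in neurogliaform-like neurons (74.0 and 48.3, -0.62, -1.04 to -0.19). In the *Ano1* and *Ano2* cluster, where 9.86% of genes passed, *Syt5* was also lower (75.5 and 46.9, -0.69, -1.05 to -0.32) and *Syt6* higher (17.3 and 31.2, 0.85, 0.23 to 1.51).

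The *Nwd2* and *Kctd8* neurons gave 4 of the 13 pairs, but 21.0% of all 5951 genes counted there passed the fold as well. It held 41 nuclei in PS19 and 93 in PZKO, with medians of 13986 and 32627 UMIs. *Syt2* was at 31.5 CPM in PS19 (20 UMIs) and 88.1 in PZKO (282 UMIs), a log2 ratio of 1.48 (0.83 to 2.22). *Syt6*, at 317 and 157 CPM (-1.02, -1.26 to -0.77), *Syt9*, at 786 and 432 (-0.86, -1.01 to -0.71), and *Syt17*, at 77.2 and 45.0 (-0.78, -1.26 to -0.28), were lower. At a lower cluster resolution none of the 4 passed.

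In granule-like, oligodendrocyte-like and astrocyte-like nuclei taken whole, 0 of the members passed 1.5-fold, where 5.22%, 6.31% and 7.4% of genes did. *Syt11* was the member furthest from 0 among those high in glia, at -0.36 (-0.42 to -0.30) in oligodendrocyte-like and -0.27 (-0.35 to -0.18) in astrocyte-like nuclei, and it was below 0 in each of the 3 oligodendrocyte-like and 2 astrocyte-like clusters. *Syt17* in astrocyte-like nuclei was at 73.5 and 79.0 CPM, a ratio of 0.11 (-0.05 to 0.26). *Syt9* in choroid plexus epithelial-like nuclei, 261 in PS19 and 94 in PZKO, had a ratio of -0.34 (-0.62 to -0.06).

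Remaining pairs past the fold lay in glial and vascular clusters. *Syt7* in the *Gpc5* and *Gli3* astrocyte-like cluster had 30 and 80 UMIs (0.65, 0.03 to 1.31), and *Syt4* in the *Aqp4* and *Gfap* cluster had 86 and 62 (-0.67, -1.17 to -0.19). The latter were 17.8 and 11.1 CPM. The estimated share of free RNA was 12.3% and 14.4% in the first cluster and 11.8% and 10.6% in the second. Whether these *Syt7* and *Syt4* UMIs are carried-over RNA was not tested. *Syt1* was lower in PZKO in pericyte or mural-like nuclei (1074 and 402 CPM, -1.42, -1.67 to -1.17), where 17.7% of genes passed. The ratio turned to 0.042 with no doublet removal and 0.067 with each library clustered on its own, and the ratio was -0.07 by a mean over nuclei. *Syt1* was also lower in vascular leptomeningeal fibroblast-like nuclei (405 and 240, -0.75, -1.01 to -0.49), where 14.2% did. Over all excitatory nuclei it stood at 3883 and 4103 CPM. The 9 neuron-only genes in these fibroblast-like nuclei spanned 1.60% to 19.2% of their neuron level in PS19 and 2.14% to 55.3% in PZKO. Whether the *Syt1* there is carried-over neuronal RNA was not tested. In these pericyte-like nuclei *Syt1* stood at 27.8% of its neuron level in PS19, beside a median of 24.99% for the 9 neuron-only genes. There the 9 genes spanned 13.5% to 35.4% in PS19 and 3.61% to 38.1% in PZKO. The estimated share of free RNA was 33.1% and 21.2%. Whether the *Syt1* of pericyte-like nuclei is carried-over neuronal RNA was not tested.

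Partners of the synaptotagmins in vesicle release were followed by fixed lists. Over all excitatory nuclei 1 of 20 fusion machinery genes passed 1.5-fold, 0 of 15 vesicle and active zone genes, and 0 of the 5 counted among the 7 other synaptotagmin family genes, of which *Syt8* had 0 UMIs in excitatory nuclei. Of all genes counted there 7.3% passed, so 1 of 20 is near the background. The list medians were 0.004, -0.002 and 0.07. The fusion gene past the fold was *Unc13c*, a vesicle priming factor, at 39.1 CPM in PS19 and 62.6 in PZKO (0.68, 0.61 to 0.75). It was higher by more than 1.5-fold in 5 of 11 excitatory clusters, where 2.39% of all gene and cluster pairs were higher. Its median over the 11 was 0.43, with a range from -0.39 to 3.76, and no equal-weight value is given for it here. Within clusters, vesicle genes are named for passing in at least 3, so a named gene stands above that share by choice.

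Within clusters, where 3.81% of all pairs were lower, *Rab3a*, a vesicle GTPase, was lower in PZKO in 4 of 17 excitatory clusters with a median of -0.30, among them the *Chst9* and *Dsp* granule-like cluster (43.5 and 25.1 CPM, -0.80, -1.07 to -0.53). *Vamp2*, the vesicle SNARE, was lower in 3 of 18, most in the *Cpa6* and *Col23a1* cluster (99.3 and 44.2 CPM, -1.17, -1.52 to -0.81), and higher in 1, the *Adamts19* and *Synpo2* cluster. No other gene of these lists passed in the same direction in 3 or more excitatory clusters. *Rab3a* and *Vamp2* were named by that rule, so their standing above 3.81% is built into the choice.

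The genes whose level most resembled each member over 88 points, 47 clusters in 1 or both libraries, were ranked by Pearson correlation of log2(CPM + 1) among 13008 genes. The points share libraries, depth and free RNA, and r is a description. *Syt1* was closest to *Grin1* (r = 0.97), an NMDA receptor subunit, and *Snap25* (0.96), a SNARE protein, and *Syt7* to *Grin1* (0.92) and *Add2* (0.90). *Syt4* was closest to *St8sia3* (0.80) and *Syt5* to *Slc8a2* (0.82), a sodium and calcium exchanger.

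For each of the other members the closest gene had r between 0.55 and 0.79. *Syt11* was closest to *Omg* (0.79), a myelin glycoprotein, and *Syt10* to *6530403H02Rik* (0.65) and *Nek10* (0.64). *Syt2* was closest to *Coro6* (0.66), *Syt9* to *F8* (0.60), *Syt17* to *Dyrk3* (0.59) and *Syt6* to *D030068K23Rik* (0.55).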

How the data were processed

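Both libraries were 10x Genomics Chromium 3′ libraries of hippocampal nuclei, and the authors deposited UMI counts per gene and nucleus as unnormalised matrices. The submitters' processing notes name Cell Ranger 7.0.1, Seurat and mm10, whereas the matrix headers name Cell Ranger 8.0.1. The ambient correction (SoupX) and doublet removal (DoubletFinder) of the study's methods are not in these counts. Nuclei with under 600 UMIs, under 300 genes or over 5% mitochondrial UMIs were removed, and Scrublet (in scanpy 1.11.5, Python 3.11.15) scores were used to drop 8.37% of PS19 and 8.11% of PZKO nuclei, the rate expected at 0.8% per 1000 nuclei, because its automatic threshold marked 0 PZKO nuclei. The libraries were clustered together (2000 variable genes without the synaptotagmins and the vesicle lists, 30 components, 20 neighbours, Leiden resolution 1, leidenalg 0.10.2). Neuronal nuclei were clustered again on their own, a step added after the first clusters mixed markers, and the naming thresholds were also chosen once the clusters were known.

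UMIs were summed per cluster and library and divided by the cluster's total (CPM). With 1 library per genotype there is no test. Ratios carry exact Clopper-Pearson intervals (scipy 1.17.1), were counted with at least 100 UMIs over both libraries and 20 nuclei in each, and were called past the fold by size alone at 1.5. The interval was tried on simulated Poisson counts, which hold no spread between nuclei or animals, so the trial covers counting error only. The named genes are the 10 members, for each the 3 genes with the highest correlation, of which 1 or 2 are printed, and vesicle genes past 1.5-fold in the same direction in at least 3 excitatory clusters. Members and lists were chosen with earlier results of these data known. Alternatives were TMM (edgeR 4.0.16) and DESeq2 1.42.0 size factors (R 4.3.3), a mean over nuclei, ambient subtraction, a stricter filter, no doublet removal, other clusterings, other minimums and a fold of 2. Gene positions are from GENCODE M21 (mm10), found for 99.8% of the 32285 genes. *Syt1* and *Syt6* overlap other genes on the same strand, so their reads are uncertain between them. In addition, 1 gene of the neuron-only list is not reported here and was left out of it.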

Additional observations from a re-analysis of the deposited data

Results flagged for a closer look

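For 3 members the PZKO over PS19 log2 ratio lay on opposite sides of 0 in a pair of clusters, beyond 1.5-fold in each. The differences were not tested, since each genotype is 1 library. All 3 involve the *Nwd2* and *Kctd8* neurons, a mixed cluster of 41 PS19 and 93 PZKO nuclei. *Syt6* was higher in PZKO in the inhibitory *Ano1* and *Ano2* cluster and lower in the *Nwd2* and *Kctd8* neurons, a difference of 1.87 between the log2 ratios. *Syt9* was higher in the excitatory *Kcnh5* and *Il1rapl2* cluster and lower in the *Nwd2* and *Kctd8* neurons, a difference of 1.65. *Syt17* was higher in CA3-like neurons and lower in the *Nwd2* and *Kctd8* neurons, a difference of 1.47. At Leiden resolution 0.5 the ratio in the *Nwd2* and *Kctd8* neurons was 0.17 for *Syt6*, 0.40 for *Syt9* and 0.25 for *Syt17*, so none of the 3 pairs had opposite signs there, and with the first clustering only *Syt6* was -0.11 in the *Ano1* and *Ano2* cluster.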

How the results depend on the processing

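No paired analysis was possible because each genotype is 1 library, and no replicate could be left out. Of 612 alternative values for 61 ratios, 524 stayed within the counting interval, 80 left it in the same direction and 8 changed sign. Over all excitatory nuclei the log2 ratio of *Syt2* was 0.14 with equal cluster weights, 0.37 without the granule-like clusters and 0.81 with the unclassed neurons added, a setting chosen after seeing the data. *Syt9* was 0.38 and *Syt10* -0.15 with equal weights, and 0.48 and -0.33 without the granule-like clusters. Apart from the 8 listed below, signs also changed over all excitatory nuclei with the weights. With equal weights *Syt1* went from 0.08 to -0.01, *Syt7* from -0.10 to 0.04 and *Syt17* from -0.07 to 0.18. Without the granule-like clusters *Syt6* became -0.10, from 0.15, and *Syt7* and *Syt17* became 0.06 and 0.35.

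Signs changed for *Syt1* in pericyte or mural-like nuclei (0.042 with no doublet removal, 0.067 with each library clustered on its own) and for *Syt6* in the *Ano1* and *Ano2* cluster (-0.11 with the first clustering only, added later). At Leiden resolution 0.5 they changed in the *Nwd2* and *Kctd8* neurons, for *Syt6* (0.17), *Syt9* (0.40) and *Syt17* (0.25), and for *Syt9* over all inhibitory nuclei (0.14, and 0.45 with the first clustering only). The causes were not tested.

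The 3 members past 1.5-fold over all excitatory nuclei became 1 at resolution 0.5 and 0 with equal weights, without granule-like clusters or at a fold of 2. TMM and DESeq2 scaling moved the log2 ratios over all excitatory nuclei up by 0.077 and 0.092, and either took *Syt10* inside 1.5-fold. The 1 over all inhibitory nuclei became 0 with a mean over nuclei, no doublet removal, resolution 0.5, the first clustering only or a fold of 2. From 0, granule-like nuclei gave 1 with no minimum of UMIs, oligodendrocyte-like nuclei 2 with a minimum of 20 or none and 1 with ambient subtraction, astrocyte-like nuclei 1 with a mean over nuclei or ambient subtraction, and parvalbumin-like nuclei 1 with a minimum of 20 and 2 with none. CA3-like neurons, at 1, gave 2 with no doublet removal, 3 with a minimum of 20 or none and 0 at a fold of 2. The *Nwd2* and *Kctd8* neurons, at 4, gave 1 with no doublet removal, 0 at resolution 0.5 and 2 at a fold of 2. The 9 of 125 pairs over 19 excitatory clusters became 4 over 10 clusters with the first clustering only. They became 6 over 14 clusters with each library clustered on its own and 7 over 15 at resolution 0.5. Over the 19 clusters they became 7 with a stricter filter, 8 with DESeq2 size factors, 10 with ambient subtraction and 0 at a fold of 2. A minimum of 20 UMIs gave 23, and no minimum gave 46 of 190. TMM scaling kept 9, but *Syt11* passed in fewer clusters. The share of all gene and cluster pairs is given at the main setting only. The cluster highest in *Syt1* ranked 4 in PS19 alone and 2 by a mean over nuclei, and that highest in *Syt5* ranked 2 in PZKO alone and by a mean over nuclei. The intervals hold counting error only, so differences between animals, dissections or library runs limit every ratio.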
